A study of Mus musculus with 13 samples.

Results

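Sorted beta cells of Txnrd1 knockout-labelled mice were compared with sorted control beta cells across all genes with enough reads. The comparison takes 7 of the 13 RNA-seq libraries of the series, chosen by their labels: 4 control beta-cell libraries and 3 knockout-labelled beta-cell libraries. Control mice were Txnrd1.+/+ and knockout mice Txnrd1.fl/fl, and every mouse was also Ins1.Cre/+ and Rosa26.mTmG/mTmG. All were of the C57BL/6 strain and aged 10 to 20 weeks. Both groups therefore carried the same Ins1-driven Cre recombinase and the same membrane reporter, which turns cells from red Tomato to green GFP where Cre has acted. Islets were held overnight in CMRL medium with serum at 5.5 mM glucose and dispersed with trypsin, and live GFP-positive cells were taken by flow sorting. RNA was amplified with a low-input SMARTseq kit, made into Nextera libraries and read in pairs on a NovaSeq instrument. The labels do not say whether replicates of a group were separate mice, so the p-values measure the spread between these samples. Of 55421 genes in the count table, 30976 had a read in the 7 libraries and 17525 passed the filter on low counts and were tested.

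Thioredoxin reductase 1 is the cytosolic selenoenzyme that uses NADPH to keep thioredoxin reduced, and reduced thioredoxin in turn recharges peroxiredoxins and other disulfide-forming proteins. Beta cells fold and secrete proinsulin at a high rate and hold low levels of several peroxide-removing enzymes, so the thioredoxin system is a known defence of this cell type. When it is inhibited in other cells, the transcription factor NRF2 escapes its repressor KEAP1 and binds antioxidant response elements, and unfolded protein and amino acid stress can act through the integrated stress response and ATF4.

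The Txnrd1 count did not fall with the knockout label. CPM values (read counts as a share of the library, scaled by TMM factors of the 7 libraries) were 269, 266, 285 and 315 in the controls and 589, 582 and 529 in the knockout-labelled libraries. All 3 knockout-labelled libraries were above all 4 controls (log2 fold change of 1.00 with a standard error of 0.08; adjusted p = 2.22e-05 in edgeR). The count covers the whole gene (chr10:82833951-82897712, + strand, GRCm38), and the labels do not name the floxed exons, so it does not check the genotype. The groups are called control and knockout-labelled for that reason.

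All 7 libraries carried the RNA of beta cells, and the third knockout-labelled library also held the most RNA of other islet cells. Totals ran from 28.7 to 36.8 M counted reads, and Ins2, the main insulin gene of the mouse, took 20.179 to 22.598% of the control reads and 21.242, 18.478 and 13.563% of the knockout-labelled reads. Summed alpha-cell markers stood at 422 to 790 CPM in controls and at 687, 566 and 3545 CPM in knockout-labelled replicates 1, 2 and 3. Replicate 3 was also the highest library for the delta-cell, pancreatic polypeptide, acinar, endothelial and stellate marker sums. Summed duct markers were 910 to 992 CPM in controls and 1363 to 1605 CPM in knockout-labelled libraries, nearly all of it Krt7, while Sox9, Cftr and Onecut1 were at or near 0. Summed macrophage and dendritic markers were 126 to 148 CPM in controls and 102 to 105 CPM in knockout-labelled libraries. They came mostly from Cd68 and C1qa, with Ptprc, Adgre1 and Itgam at or near 0. The lymphocyte markers Cd8a and Ms4a1 and the Schwann cell markers Cdh19 and Foxd3 were at 0 in every library. The part that other cells or depth played in the gene results was not tested. In sorted pools, fewer cells of a type and less RNA per cell cannot be told apart.

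**Figure D1:**
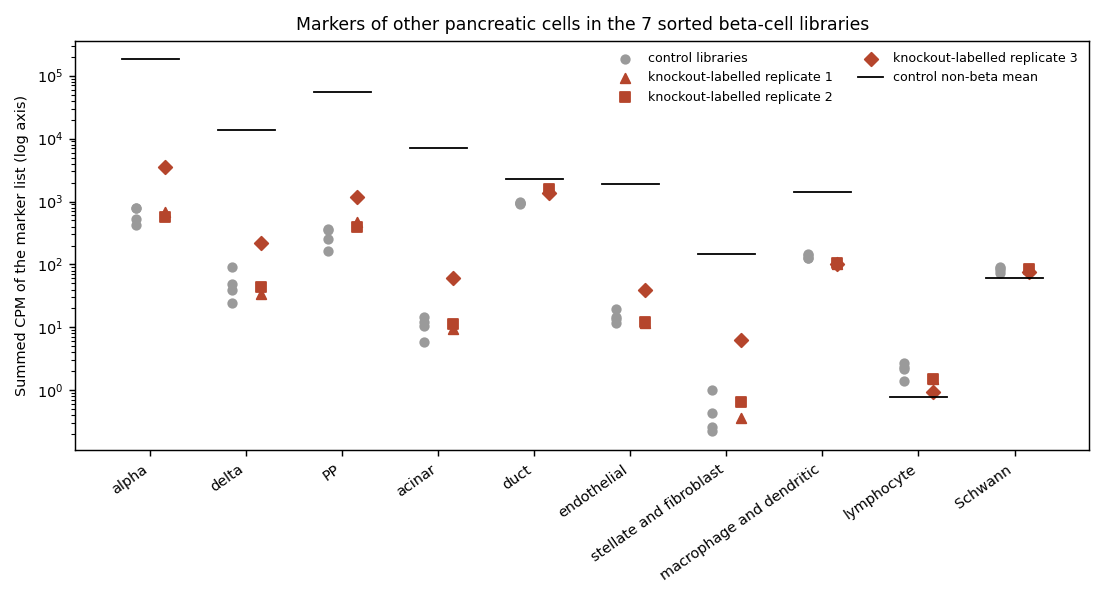
Summed CPM of the marker genes of each cell type (log axis) in the 4 control and the 3 knockout-labelled beta-cell libraries, 1 point per library. Knockout-labelled replicate 3 stands highest for alpha (3545 CPM), delta (222 CPM) and pancreatic polypeptide (1183 CPM) markers.

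The difference between the groups reached across the expressed genome and was mostly small per gene. edgeR's quasi-likelihood test called 3525 genes at an adjusted p below 0.05, which is 20.1% of the genes tested. Of these, 1778 genes were higher (10.1%) and 1747 lower (9.97%) in knockout-labelled cells. A fold of at least 2 was reached by 655 of the called genes (3.74% of those tested), 340 higher and 315 lower. Calls under 1.5-fold numbered 2088, or 59.2%, and 110 genes passed 4-fold, 64 higher and 46 lower. Every knockout-labelled library stood above every control library for 2618 genes (14.9%) and below for 2723 genes (15.5%). The median log2 fold change over all genes tested was 0.01, with quartiles of -0.21 and 0.23.

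The genes called higher took 9.51 to 10.15% of all reads in controls and 15.47 to 16.18% in knockout-labelled libraries. The genes called lower took 17.72 to 18.2% of control reads and 12.2 to 13.88% of knockout-labelled reads. The share of genes called grew with level, from 6.35% of genes under 1 CPM to 37% of genes at 100 CPM or more. The first principal component of log2 CPM carried 45.6% of the variance and separated the groups. Leaving out 1 library at a time moved the count of called genes by more than 1.5 times in 3 cases: it was 2218 without control replicate 2, 1991 without knockout-labelled replicate 1 and 2343 without knockout-labelled replicate 2. No gene called in the full fit was called in the other direction in any of these fits. A single fit over all 13 libraries of the series, which shares 1 estimate of the spread among more groups, called 1673 genes, 899 higher and 774 lower. Where it moved a list's count by over 1.5 times or ended the call of a gene described below, its value stands beside that count or gene.

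**Figure D2:**
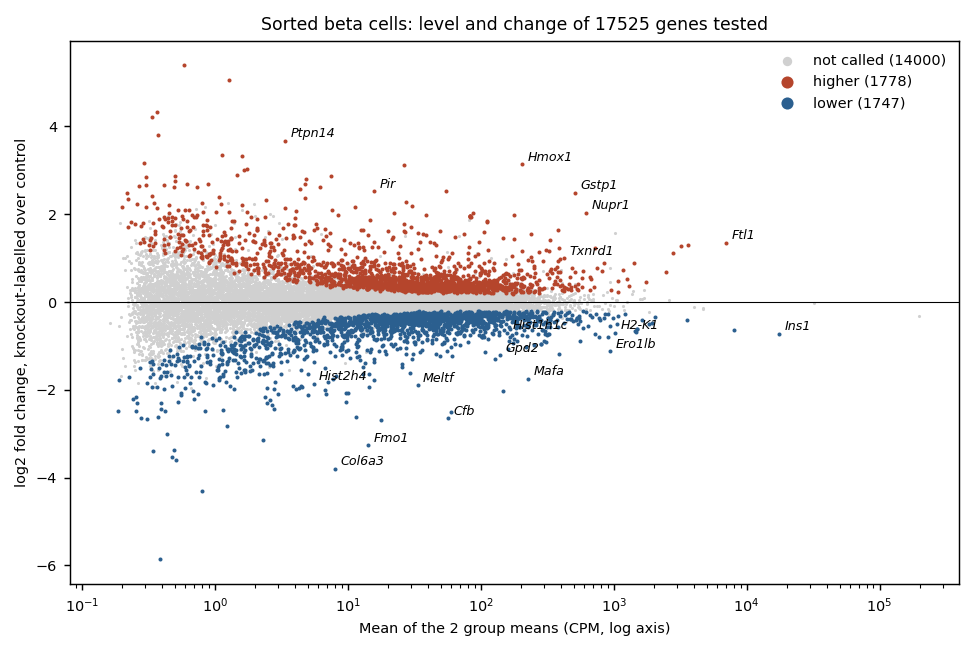
Log2 fold change of knockout-labelled over control beta cells against mean level (CPM, log axis) for the 17525 genes tested, with called genes coloured by direction. Calls lie on both sides in nearly equal number (1778 higher, 1747 lower) and most lie within 1.5-fold.

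Several of the genes with the smallest p-values lie outside the antioxidant and hormone genes. Meltf, which encodes the membrane-anchored transferrin relative melanotransferrin (chr16:31878810-31899020, + strand), stood at 48.8, 50.7, 51.2 and 60.8 CPM in controls and at 12.9, 13.6 and 16.0 CPM in knockout-labelled cells. The groups lay far apart (log2 fold change -1.90, standard error 0.11, adjusted p = 4.52e-06). Gpd2, the mitochondrial enzyme of the glycerol phosphate shuttle that passes cytosolic NADH electrons to the respiratory chain (chr2:57237635-57370719, + strand), fell from 201, 206, 187 and 186 CPM to 78.6, 91.4 and 81.9 CPM. Its highest knockout-labelled library was below its lowest control library (log2 fold change -1.21, standard error 0.08, adjusted p = 7.25e-06). Pgrmc1, a heme-binding membrane protein (chrX:36598206-36606079, + strand), rose from 212, 199, 192 and 205 CPM to 479, 433 and 448 CPM. The spread within each group was small beside the gap (log2 fold change 1.17, standard error 0.07, adjusted p = 4.52e-06).

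Among abundant genes the largest gain in CPM was that of Ftl1, the ferritin light chain that stores iron, at 4286, 3924, 3768 and 3718 CPM in controls and 11873, 9760 and 8478 CPM in knockout-labelled cells. The groups lay far apart (log2 fold change 1.35, standard error 0.10). Gm22133 and Gm10252, next in that ranking, share 100% and 42.7% of their exon bases with Ftl1 and cannot be counted apart from it. Sqstm1, the autophagy receptor p62, followed with 1768, 1622, 1762 and 1952 CPM against 4482, 3994 and 3060 CPM. Nupr1, a small stress-induced nuclear protein, stood at 344, 199, 265 and 172 CPM against 1157, 969 and 877 CPM (log2 fold change 2.03, standard error 0.20, adjusted p = 0.000101). Its controls varied more than those of Sqstm1, and all were still below the lowest knockout-labelled library. Krt7, a simple epithelial keratin that these beta cells hold at high level, stood at 892, 887, 851 and 909 CPM against 1566, 1520 and 1312 CPM (log2 fold change 0.73, standard error 0.07).

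At the other end, several abundant genes outside the hormone group fell. Ero1lb, the oxidase that drives disulfide formation in the endoplasmic reticulum of beta cells, went from 1311, 1380, 1150 and 1321 CPM to 581, 630 and 564 CPM (log2 fold change -1.12, standard error 0.08, adjusted p = 1.55e-05). Prss53, a serine protease gene, stood at 1771 ± 152 CPM (SD, n = 4) in controls and 1123 ± 86.0 CPM (n = 3) in knockout-labelled cells, and Fam151a at 1146 ± 118 and 663 ± 43.8 CPM. Prss53 shares 84% of its exon bases with other genes and Fam151a shares 65.7%, so reads of neighbours may be in both counts. Neither was called with all 13 libraries (adjusted p 0.518 for Prss53 and 0.481 for Fam151a). Among genes with at least 5 CPM in a group and no overlap between groups, Col6a3, a collagen VI chain, had the largest fall. It stood at 12, 11.8, 18.5 and 17.8 CPM in controls and 0.900, 0.937 and 1.37 CPM in knockout-labelled cells (log2 fold change -3.79, standard error 0.24). The largest rise by the same rule was that of Ptpn14, a tyrosine phosphatase that restrains the Hippo effector YAP, with 0.223, 0.284, 0.594 and 0.835 CPM against 8.90, 5.46 and 4.47 CPM (log2 fold change 3.67, standard error 0.38).

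**Figure D3:**
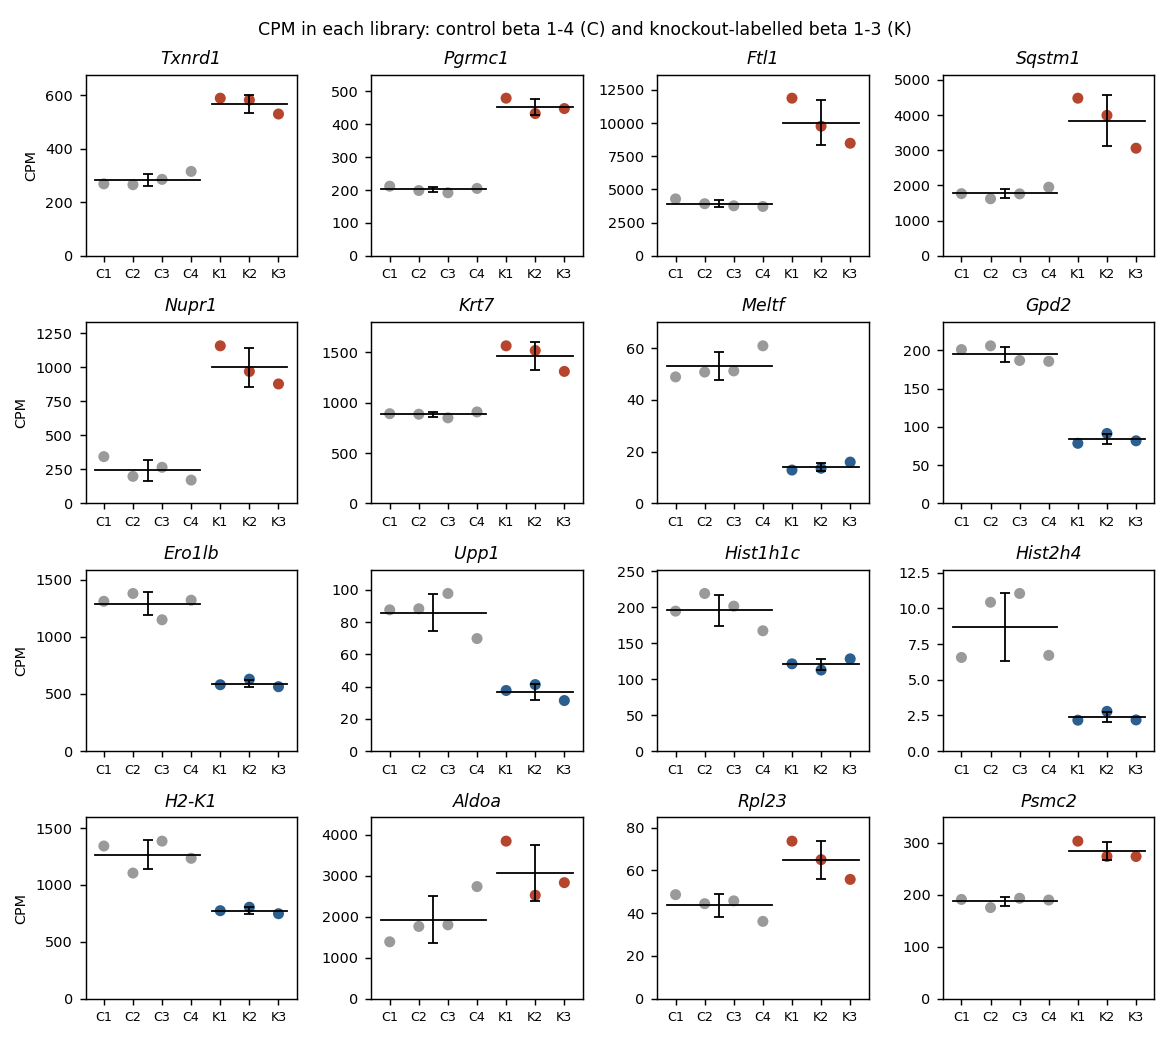
CPM of 16 genes in each of the 7 beta-cell libraries, with 4 control points (grey) and 3 knockout-labelled points (coloured) per gene and bars for the mean ± SD. The groups do not overlap for Pgrmc1, Ftl1, Sqstm1, Nupr1, Krt7, Meltf, Gpd2 and Ero1lb, while they do for Aldoa.

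The promoters of the most clearly raised genes show where the letters of an antioxidant response element fall. The core searched was TGACNNNGC on either strand, in the 300 bases from 250 before to 50 after each gene's RefSeq start (GRCm38.p6). A RefSeq promoter was found for 10314 of the protein-coding genes tested. The first 3 genes by adjusted p among those called higher, at least 2-fold and with a match are shown, with the match in capitals. Where a gene had several RefSeq starts, only a window with a match is shown. In Ikbkg (chrX:74424362-74424661, + strand) the match starts 38 bases before the start shown. That start lies inside the annotated gene, which begins at chrX:74393290. In Pir, whose product pirin is an iron-binding nuclear protein (chrX:164269181-164269480, + strand), matches start 214 bases before the start and at base 20 after it. In Pgrmc1 (chrX:36597943-36598242, + strand) the match starts 192 bases before the start.
Ikbkg: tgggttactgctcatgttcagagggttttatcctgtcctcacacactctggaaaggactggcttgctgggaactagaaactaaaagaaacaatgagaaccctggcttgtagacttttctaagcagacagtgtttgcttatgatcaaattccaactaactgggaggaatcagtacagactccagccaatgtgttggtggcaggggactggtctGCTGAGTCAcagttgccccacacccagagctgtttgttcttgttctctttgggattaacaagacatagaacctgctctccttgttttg
Pir: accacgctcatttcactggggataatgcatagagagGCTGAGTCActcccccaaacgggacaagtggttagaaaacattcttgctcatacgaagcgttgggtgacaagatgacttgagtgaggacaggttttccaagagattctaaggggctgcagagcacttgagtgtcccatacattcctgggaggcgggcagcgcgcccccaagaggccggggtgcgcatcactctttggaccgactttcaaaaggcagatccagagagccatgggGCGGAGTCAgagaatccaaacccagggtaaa
Pgrmc1: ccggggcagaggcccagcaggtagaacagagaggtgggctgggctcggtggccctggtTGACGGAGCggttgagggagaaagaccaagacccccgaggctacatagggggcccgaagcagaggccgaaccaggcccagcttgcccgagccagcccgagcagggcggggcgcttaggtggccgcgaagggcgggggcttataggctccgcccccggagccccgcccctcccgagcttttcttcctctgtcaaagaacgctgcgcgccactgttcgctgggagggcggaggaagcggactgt

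Each gene was counted once, as holding the core if any of its promoters did. The core was found for 229 of 1216 genes called higher (18.8%) and 179 of 1155 called lower (15.5%). Among genes not called it was found for 1350 of 7943 (17.0%). It was found for 36 of 178 genes at least 2-fold higher (20.2%) and 26 of 155 at least 2-fold lower (16.8%). These shares lie close together, so the letters alone barely separate risers from other genes. Among NRF2 target genes 10 of 28 held the core (35.7%), while among glutathione transferases and other conjugating enzymes 2 of 38 did (5.26%). Over all 10314 genes the share was 17.0%. Counted per promoter and not per gene, the share over all 32851 promoters of the table was 12.4%. A match describes letters in this window and no site of binding.

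Ikbkg and its neighbour G6pdx moved in opposite directions. Ikbkg, the regulatory subunit NEMO of the IkappaB kinase, stood at 56, 52.9, 49.8 and 53.0 CPM in controls and at 179, 159 and 142 CPM in knockout-labelled cells (log2 fold change 1.60, standard error 0.09). G6pdx, which makes NADPH in the pentose phosphate pathway, fell from 70.4, 64.2, 65.0 and 72.5 CPM to 36.2, 32.9 and 36.1 CPM (log2 fold change -0.96, standard error 0.08, adjusted p = 2.72e-05). The genes are on opposite strands. G6pdx (chrX:74409483-74429194, - strand) lies within the annotated span of Ikbkg (chrX:74393290-74453854, + strand), and the Ikbkg promoter window shown above lies within G6pdx. They share 5.15% of the exon bases of Ikbkg, and with the strand setting of the counting not given, reads in that stretch cannot be assigned.

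The genome-wide response was described through 87 lists of functionally related genes, which held 3960 of the genes tested (22.6%) and 1022 of the called genes (29.0%). The other 2503 called genes are in no list. Each list is described by how many tested members were called, beside the 10.1% higher and 9.97% lower over all genes. The share of members called ran from 0% for 5 sex-linked genes, 6.00% for the nuclear pore and 8.33% for the hypoxia response up to 80.0% for integrated stress response targets and 90.9% for NRF2 target genes. Most lists had calls in both directions, at shares that ranged widely around those of all genes. Lists that leaned to the higher side included those of protein synthesis and turnover, conjugation and integrated stress response targets. Lists that leaned to the lower side included the early secretory pathway, beta-cell genes, islet receptors, antigen presentation, inflammation and histones. For many of these lists the counts were smaller with all 13 libraries.

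**Figure D4:**
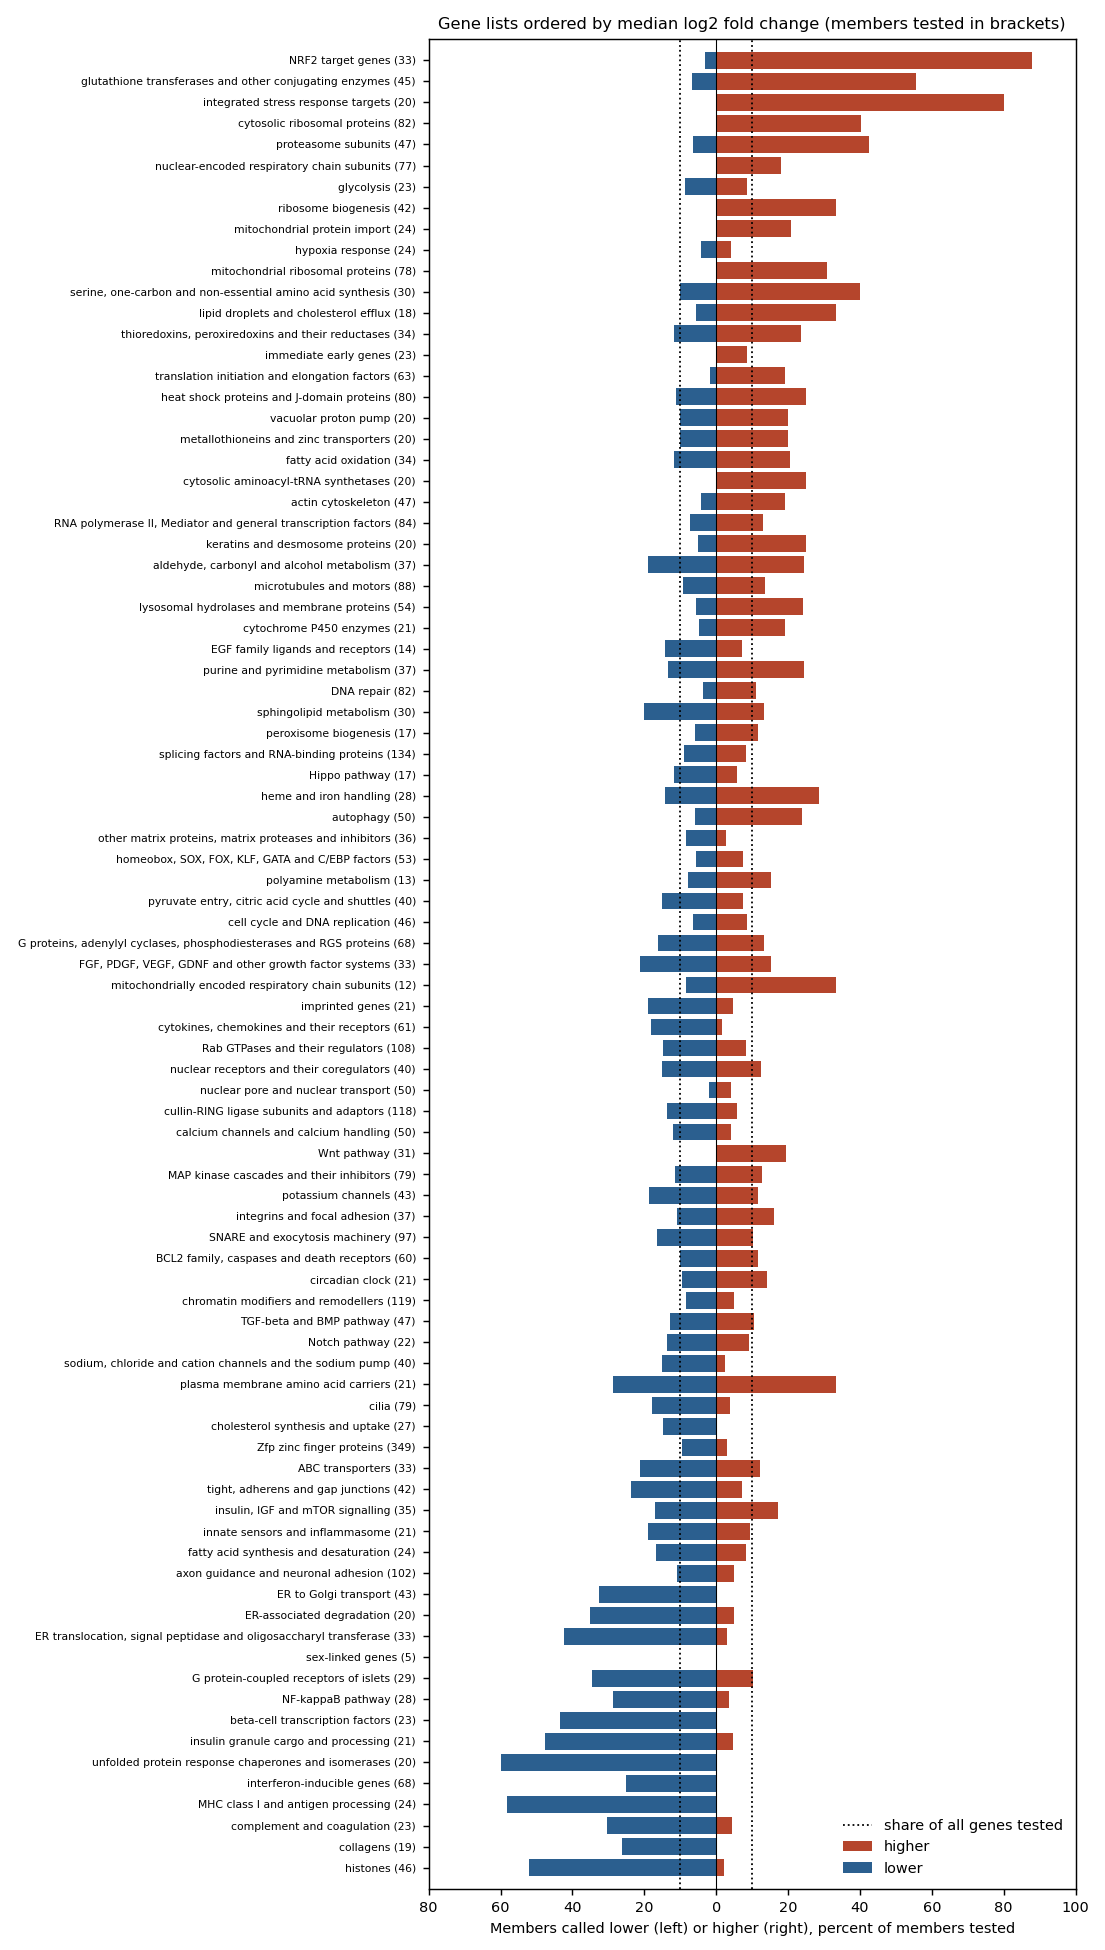
Percent of the tested members of each of the 87 gene lists called higher (to the right) and lower (to the left), with dotted lines at the shares over all genes (10.1% higher, 9.97% lower). NRF2 and integrated stress response targets reach farthest to the right, and histones, MHC class I and folding enzymes reach far to the left.

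Genes for making ribosomes and protein leaned higher without a single call lower in the ribosome lists. Ribosomal proteins form the subunits of the ribosome in the cytosol, and a separate set serves mitochondria. Of 82 cytosolic ribosomal proteins tested, 33 were called higher and 0 lower, with a median log2 fold change of 0.38. Rpl23 stood at 48.7, 44.4, 45.8 and 36.2 CPM in controls and 73.7, 65.0 and 55.8 CPM in knockout-labelled cells (log2 fold change 0.57, standard error 0.12, adjusted p = 0.00691), with no overlap. The count depended on single libraries: it was 6, 15, 14, 2, 5 and 59 without control 2, control 3, control 4, knockout-labelled 1, knockout-labelled 2 and knockout-labelled 3. It was 3 with all 13 libraries. The list's median deviation from the control mean was 0.61, 0.46 and 0.07 in knockout-labelled replicates 1, 2 and 3 and -0.27 in control replicate 4. The third replicate, with the most alpha-cell RNA, thus lay within the control range of 0.21 to -0.27.

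Of 78 mitochondrial ribosomal proteins, 24 were called higher and 0 lower (median 0.22). Mrps26 rose from 45.5 ± 3.24 to 63.9 ± 8.03 CPM and Mrpl15 from 28.8 ± 1.99 to 41.9 ± 6.18 CPM. The count of 24 was 8, 7 and 10 without controls 2, 3 and 4 and 6, 7 and 41 without knockout-labelled 1, 2 and 3. It was 10 with all 13 libraries. Ribosome biogenesis, the nucleolar work of cutting and folding ribosomal RNA, had 14 of 42 members called higher and 0 lower, and its median deviation was alike in the 3 knockout-labelled replicates at 0.24, 0.19 and 0.20. Gnl3, the nucleolar GTPase nucleostemin, stood at 51.4, 53.2, 52.5 and 55.7 CPM against 78.0, 73.7 and 85.0 CPM (log2 fold change 0.57, standard error 0.07, adjusted p = 0.000513). Npm1, the nucleolar chaperone nucleophosmin, rose from 88.0 ± 4.69 to 124 ± 12.9 CPM. The ribosome biogenesis count was 8 without control 2 and 9 without control 3, control 4, knockout-labelled 1 or knockout-labelled 2. With all 13 libraries it was 6.

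Among 63 translation initiation and elongation factors, 12 were called higher and 1 lower (median 0.14). Eif3c, a scaffold subunit of initiation factor 3, stood at 360, 340, 337 and 372 CPM against 457, 458 and 465 CPM (log2 fold change 0.39, standard error 0.06). Eif4g1, the scaffold of the cap-binding complex, fell by a small step from 167 to 145 CPM (log2 fold change -0.20, adjusted p = 0.0453), a call that was lost without control 1, control 2, control 3, control 4, knockout-labelled 1 or knockout-labelled 2 (adjusted p 0.0695 to 0.134) and with no filter on low counts (adjusted p 0.0857). In the fit of all 13 libraries, neither Eif3c (adjusted p 0.0526) nor Eif4g1 (adjusted p 0.54) was called, and the list had 4 higher and 0 lower. The count of 12 was 4 without control 2, 4 and 6 without knockout-labelled 1 and 2, and 23 without knockout-labelled 3. Of 20 cytosolic aminoacyl-tRNA synthetases, which load amino acids onto tRNA, 5 were higher and 0 lower. Eprs, which loads glutamate and proline, went from 415, 395, 372 and 400 CPM to 527, 522 and 530 CPM (log2 fold change 0.41, standard error 0.06), and Sars, which loads serine, from 447 to 577 CPM. The synthetase count was 3 without control 2, control 3, control 4 or knockout-labelled 2. It was 1 with all 13 libraries, and Sars was not called (adjusted p 0.0677).

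**Figure D5:**
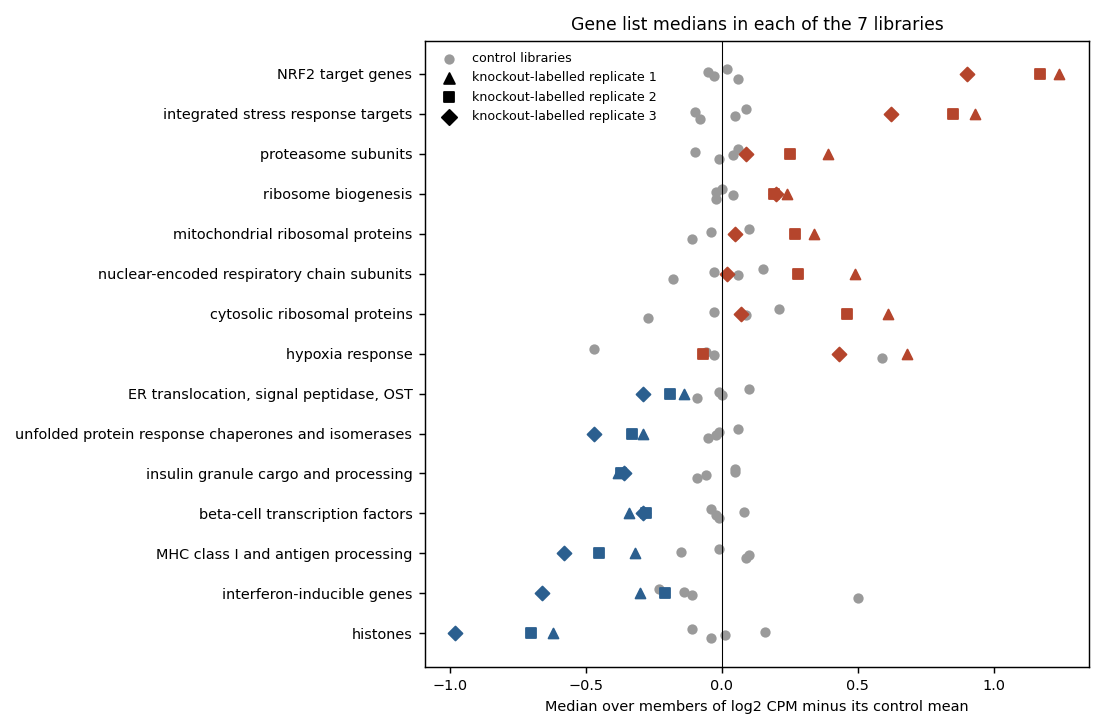
Median log2 deviation from the control mean of the members of 15 gene lists in each of the 7 beta-cell libraries, 1 point per library. Ribosomal, proteasome and respiratory chain medians are highest in knockout-labelled replicate 1 (0.61, 0.39 and 0.49) and near the controls in replicate 3 (0.07, 0.09 and 0.02), while folding enzymes, MHC class I and histones are below the controls in all 3.

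Subunits of the proteasome, the barrel-shaped protease that degrades ubiquitin-tagged proteins, leaned higher, while subunits of its immune form were lower. Of 47 proteasome subunits and assembly factors, 20 were called higher and 3 lower (median 0.27). Psmc2, an ATPase of the regulatory cap, stood at 191, 175, 193 and 190 CPM in controls and 303, 274 and 274 CPM in knockout-labelled cells (log2 fold change 0.60, standard error 0.07, adjusted p = 0.00026). Every knockout-labelled library lay well above every control library. The 3 lower members were Psmb8 and Psmb9, catalytic subunits that interferon exchanges into the immunoproteasome, and Psme4, an activator cap. Psmb8 stood at 63.0, 62.2, 73.2 and 77.6 CPM against 58.1, 50.4 and 39.7 CPM (log2 fold change -0.48, standard error 0.13, adjusted p = 0.0228). The calls of all 3 were lost without control 3, and each was also lost without at least 1 other library: control 1, control 2, control 4, knockout-labelled 1 or knockout-labelled 3 for Psmb9, knockout-labelled 2 for Psmb8, and control 2 or knockout-labelled 2 for Psme4 (adjusted p 0.0537 to 0.0753). The higher count of the proteasome subunits was 10 without control 2, 9 and 11 without knockout-labelled 1 and 2, and 31 without knockout-labelled 3. The lower count was 1 without control 2 or knockout-labelled 2 and 0 without control 3. The fit of all 13 libraries gave 11 proteasome subunits higher and 0 lower, with adjusted p 0.0646 for Psmb8, 0.184 for Psmb9 and 0.153 for Psme4.

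Autophagy genes had more calls higher than lower, while the list median stayed near 0. Calls took 30% of the list, against 20.1% of all genes. Of 50 autophagy genes, 12 were called higher and 3 lower (median 0.03). Beside Sqstm1, the cargo receptor Optn went from 45.3, 50.0, 45.7 and 52.2 CPM to 77.6, 79.8 and 88.5 CPM (log2 fold change 0.76, standard error 0.08, adjusted p = 0.000144). Gabarapl1, a ubiquitin-like protein of the autophagosome membrane, rose from 148 ± 5.54 to 232 ± 27.1 CPM. The higher count was 7 without control 1, 2 or 3 or knockout-labelled 1, and the lower count 1 without knockout-labelled 1. Among 54 lysosomal hydrolases and membrane proteins, 13 were higher and 3 lower (median 0.08). Tpp1, a lysosomal peptidase, stood at 99.3, 103, 98.3 and 95.2 CPM against 128, 132 and 143 CPM, while Gusb, beta-glucuronidase, fell from 88.4 ± 4.73 to 58.0 ± 3.19 CPM. Among lysosomal hydrolases and membrane proteins the lower calls numbered 1 without control 2, control 3 or knockout-labelled 1, and 5 without knockout-labelled 3. When all 13 libraries were fitted together, 6 autophagy genes were higher and 0 lower, and 6 lysosomal genes were higher and 1 lower.

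Of 80 heat shock proteins and J-domain proteins, the chaperones and their partners, 20 were called higher and 9 lower (median 0.14). Hspb8, a small heat shock protein that feeds misfolded proteins to autophagy, stood at 12.1, 7.88, 15.3 and 12 CPM against 47.8, 40.4 and 34.2 CPM (log2 fold change 1.79, standard error 0.18, adjusted p = 0.000121). Hspa9, the Hsp70 of the mitochondrial matrix, stood at 557, 526, 516 and 538 CPM against 806, 777 and 812 CPM. Both groups were tight around their means (log2 fold change 0.58, standard error 0.06, adjusted p = 0.000152). The fallers included Dnajc10, a J-domain disulfide reductase of the endoplasmic reticulum, at 177, 186, 183 and 182 CPM against 110, 119 and 121 CPM (log2 fold change -0.64, standard error 0.07). The count of higher heat shock proteins and J-domain proteins was 11, 12, 11 and 12 without control 2, control 3, knockout-labelled 1 and knockout-labelled 2. Their lower count was 5 without control 1 or control 2. Over all 13 libraries in 1 fit, 9 were higher and 4 lower.

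The early secretory pathway, which imports, folds and ships proinsulin, leaned lower. Of 20 unfolded protein response chaperones and isomerases, 12 were called lower and 0 higher (median -0.39), and the lower count stayed between 11 and 14 when any 1 library was left out, with 1 member higher without control 4. The isomerase Pdia6 stood at 1916, 1877, 1807 and 1705 CPM in controls and 1168, 1153 and 1094 CPM in knockout-labelled cells (log2 fold change -0.68, standard error 0.07, adjusted p = 0.000106). Pdia4 went from 719, 715, 709 and 695 CPM to 439, 492 and 490 CPM. In both genes the spread within a group was a small part of the gap between groups. The median deviation of the list was -0.29, -0.33 and -0.47 in the 3 knockout-labelled replicates.

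Of 33 genes for ER translocation, signal peptidase and oligosaccharyl transferase, 14 were called lower and 1 higher (median -0.17). Spcs3, a signal peptidase subunit, fell from 470, 486, 452 and 405 CPM to 279, 326 and 317 CPM (log2 fold change -0.56, standard error 0.08). Rpn1, a subunit of the enzyme that adds N-linked sugars, fell from 902 ± 27.4 to 682 ± 38.7 CPM, and Sec61a1, the pore of the translocation channel, from 595 to 460 CPM. The exception was Krtcap2, a subunit of the same sugar-transfer complex, at 153, 143, 142 and 131 CPM against 217, 195 and 155 CPM (adjusted p = 0.0212). For the list of ER translocation, signal peptidase and oligosaccharyl transferase, the lower calls numbered 9, 7, 9, 8 and 6 without control 1, control 2, control 3, knockout-labelled 1 and knockout-labelled 2. Krtcap2 was called neither without control 2 or 3 nor without knockout-labelled 1 or 2, which left 0 members higher. Under the fit of all 13 libraries, 4 members were lower and 0 higher, Krtcap2 having an adjusted p of 0.101.

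Of 43 genes of ER to Golgi transport, 14 were called lower and 0 higher (median -0.16). Sec23b, an inner coat protein of export vesicles, stood at 369, 386, 371 and 382 CPM against 265, 271 and 278 CPM (log2 fold change -0.47, standard error 0.06, adjusted p = 0.000539). The ER to Golgi transport count was 9, 9, 8, 6 and 9 without control 1, control 2, control 3, knockout-labelled 1 and knockout-labelled 2, and 1, 1 and 3 members were higher without control 4, knockout-labelled 2 and knockout-labelled 3. Of 20 genes of ER-associated degradation, which returns misfolded proteins to the cytosol, 7 were lower and 1 higher (median -0.17). Edem2, which trims the sugars of misfolded proteins, fell from 266, 248, 257 and 233 CPM to 186, 168 and 168 CPM, and Derl1, a membrane channel component, rose from 431 to 522 CPM. The ER-associated degradation count was 4 without control 1, control 3, knockout-labelled 1 or knockout-labelled 2, and Derl1 was not called without knockout-labelled 2. With all 13 libraries 3 genes of ER to Golgi transport and 1 of ER-associated degradation were lower, and Derl1 was not called (adjusted p 0.109).

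NRF2 target genes and conjugating enzymes gave the largest list medians. Of 33 NRF2 target genes, 29 were called higher and 1, G6pdx, lower (median 1.11), and of 45 glutathione transferases and other conjugating enzymes 25 were higher and 3 lower (median 0.89). The first count was 29 or 30 and the second 23 to 26 when any 1 library was left out. Of 34 thioredoxins, peroxiredoxins and their reductases, 8 were higher and 4 lower (median 0.18, with 35.3% called against 20.1% of all genes). Their higher count was 4 without control 2, control 4 or knockout-labelled 1, and 5 without control 3. It was 4 with all 13 libraries. The conjugating enzyme list counts some reads more than once. The UDP-glucuronosyltransferase genes of the Ugt1a locus on chromosome 1 share their later exons, 82.7% of the exon bases in Ugt1a1 and 60.6% in Ugt1a6b, and stood at 34.1 and 34.7 CPM in controls and 131 and 142 CPM in knockout-labelled cells, so they are 1 signal. Gstp1, the pi-class glutathione transferase, and its processed pseudogene Gstp-ps rose in parallel (log2 fold change 2.49 and 2.53), and near-identical copies cannot be told apart by counts.

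Some conjugating and other detoxification genes fell. Sult1d1, a sulfotransferase, stood at 7.23 CPM in controls and 1.88 CPM in knockout-labelled cells (log2 fold change -1.94, standard error 0.22). Fmo1, a flavin monooxygenase of the list of aldehyde, carbonyl and alcohol metabolism, had the smallest p-value of all genes tested. It stood at 25.5, 23.1, 29.1 and 24.9 CPM in controls and 2.43, 2.84 and 2.69 CPM in knockout-labelled cells, nowhere near each other (log2 fold change -3.27, standard error 0.12, adjusted p = 3.68e-07). On that list 9 of 37 members were higher and 7 lower. These counts were 5 and 4 with all 13 libraries. Of 28 genes of heme and iron handling, 8 were higher and 4 lower (median 0.03). Abcb6, a porphyrin transporter, rose from 23.7, 24.0, 22.7 and 25.6 CPM to 47.0, 44.8 and 50.5 CPM, while the metalloreductases split, Steap1 rising from 20.0 to 57.6 CPM and Steap4 falling from 11.1 to 2.55 CPM. In heme and iron handling 2 were lower without control 3. Likewise 2 were lower with all 13 libraries, where Steap4 was not called (adjusted p 0.0547). Metallothioneins, small zinc- and copper-binding proteins, rose: Mt1 stood at 944, 1007, 1059 and 1025 CPM against 2215, 1655 and 1698 CPM, and Mt2 at 240, 271, 273 and 292 CPM against 648, 459 and 476 CPM. Mt2 shares 73.5% of its exon bases with an antisense gene. The call of Mt2 was lost with all 13 libraries (adjusted p 0.0662).

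Targets of the integrated stress response rose together. This pathway slows general translation and raises ATF4, which turns on genes for amino acid supply. Of 20 targets, 16 were called higher and 0 lower (median 0.83), with 14 to 17 called when any 1 library was left out. The count was 10 with all 13 libraries. Trib3, a pseudokinase that dampens the pathway, stood at 208, 160, 193 and 200 CPM in controls and 462, 442 and 396 CPM in knockout-labelled cells (log2 fold change 1.19, standard error 0.09, adjusted p = 2.37e-05). Ddit3, the factor CHOP, rose from 288, 250, 283 and 279 CPM to 526, 496 and 404 CPM, and Gdf15, a secreted stress hormone, from 11.7, 10.5, 11.7 and 12.7 CPM to 33.9, 34.8 and 26 CPM. All 3 genes were without overlap, and in Ddit3 and Gdf15 replicate 3 was the lowest of the knockout-labelled libraries.

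Amino acid enzymes and carriers changed in both directions. Of 30 genes of serine, one-carbon and non-essential amino acid synthesis, 12 were higher and 3 lower (median 0.20). Gpt2, the mitochondrial alanine aminotransferase, stood at 42.5, 34.6, 40.9 and 34 CPM against 76.6, 76.2 and 72.5 CPM (log2 fold change 0.98, standard error 0.09). Cbs, which starts the route from homocysteine to cysteine, stood at 55.1, 49.1, 46.8 and 46.2 CPM against 22.9, 20.7 and 25.4 CPM (log2 fold change -1.10, standard error 0.10, adjusted p = 4.02e-05). Mat2a, which makes the methyl donor S-adenosylmethionine, rose from 94.4 ± 7.24 to 156 ± 9.35 CPM. In serine, one-carbon and non-essential amino acid synthesis 5 were lower without control 4. Of 21 plasma membrane amino acid carriers, 7 were higher and 6 lower. Slc3a2, the shared heavy chain of several carriers, went from 615 ± 57.7 to 1011 ± 114 CPM, while Slc7a2, a carrier of arginine and lysine, went from 82.9, 81.2, 78.8 and 76.2 CPM to 36.7, 39.8 and 41.3 CPM (log2 fold change -1.02, standard error 0.07, adjusted p = 1.55e-05). The lower count of the plasma membrane amino acid carriers was 3 without control 2 or knockout-labelled 1. In the fit of all 13 libraries, 5 of the synthesis genes were higher, and 4 of the carriers were higher and 2 lower.

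Mitochondrial genes of nuclear origin leaned higher in a way that rested on single libraries. Of 77 nuclear-encoded respiratory chain subunits, 14 were higher and 0 lower (median 0.25), which is 18.2% of the list. Their median deviation was 0.49, 0.28 and 0.02 in knockout-labelled replicates 1, 2 and 3. The count of nuclear-encoded respiratory chain subunits was 4, 8 and 7 without controls 2, 3 and 4, 2 and 3 without knockout-labelled 1 and 2, and 42 without knockout-labelled 3. Cox6a2, an isoform of a cytochrome oxidase subunit best known from muscle, stood out with 12.1, 8.51, 9.82 and 8.86 CPM against 33.4, 25.9 and 31.6 CPM (log2 fold change 1.62, standard error 0.13, adjusted p = 2.82e-05). Of 24 genes of mitochondrial protein import, 5 were higher and 0 lower, a count of 1 to 2 without controls 2 to 4 or knockout-labelled 1 or 2, and of 11 without knockout-labelled 3. When all 13 libraries were fitted together, 4 respiratory chain subunits and 0 genes of mitochondrial protein import were higher.

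Core carbon metabolism showed calls in both directions. They took 22.5% of pyruvate entry, citric acid cycle and shuttles and 17.4% of glycolysis, against 20.1% of all genes. Of 40 genes for pyruvate entry, citric acid cycle and shuttles, 3 were higher and 6 lower (median 0.00). Beside Gpd2, Pcx, the enzyme that carboxylates pyruvate to oxaloacetate, fell from 246, 241, 255 and 294 CPM to 149, 161 and 151 CPM (log2 fold change -0.75, standard error 0.08, adjusted p = 0.000185). Lower calls among pyruvate entry, citric acid cycle and shuttles numbered 3 without control 2, control 3 or knockout-labelled 1 and 2 without knockout-labelled 2. Of 23 glycolysis genes, 2 were higher and 2 lower. Pfkfb2, which sets the level of fructose 2,6-bisphosphate, went from 71.5 to 43.7 CPM. Glycolysis varied within groups: Aldoa, aldolase A, stood at 1390, 1765, 1804 and 2739 CPM in controls and 3848, 2527 and 2835 CPM in knockout-labelled cells, overlapping between the groups (adjusted p = 0.0381). Its call was lost without control 1, 2 or 3 or knockout-labelled 1 (adjusted p 0.0772 to 0.17), and in DESeq2 (adjusted p 0.0883). The list's median deviation was -0.42 to 0.42 among controls and 0.54, -0.13 and 0.31 in knockout-labelled replicates, and 7 glycolysis genes were called higher without control 4. The higher count was 1 without control 1, control 2, control 3 or knockout-labelled 1. Over all 13 libraries in 1 fit, Aldoa was not called (adjusted p 0.165), 1 glycolysis gene was higher, and 1 gene of pyruvate entry, citric acid cycle and shuttles was higher and 3 lower.

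The hypoxia response list followed the same libraries. Of 24 members, 1 was higher and 1 lower, and the median deviation ran from -0.47 to 0.59 in controls, highest in replicate 4, and stood at 0.68, -0.07 and 0.43 in knockout-labelled replicates. Without control 4, 7 hypoxia response genes were called higher. The 1 higher call, Hilpda, a lipid droplet protein, overlapped between groups and was lost without control 1, 2 or 3 or knockout-labelled 1 or 3. It was also lost with all 13 libraries (adjusted p 0.3) and in DESeq2 (adjusted p 0.0889). Without knockout-labelled 2 the count was 3. The lower call was Cited2, a negative regulator of the hypoxia factor HIF1A, at 28.8, 34.7, 30.3 and 30.3 CPM against 17.1, 19.4 and 19.9 CPM (log2 fold change -0.72, standard error 0.09).

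Lipid and nucleotide enzymes changed in both directions. Me1, the cytosolic malic enzyme that makes NADPH for fatty acid synthesis, stood at 45.4, 42.1, 46.2 and 47.2 CPM against 81.5, 80.3 and 77.7 CPM (log2 fold change 0.82, standard error 0.07, adjusted p = 3.23e-05). In the same list of 24 genes of fatty acid synthesis and desaturation, 2 were higher and 4 lower, the lower count being 2 without knockout-labelled 1 and 9 without knockout-labelled 3. Of 27 genes of cholesterol synthesis and uptake, 4 were called lower and 0 higher. The lower count was 2 without control 2, 1 without control 3, knockout-labelled 1 or knockout-labelled 2, and 11 without knockout-labelled 3, and 1 was higher without knockout-labelled 1. Under the fit of all 13 libraries, 1 gene of fatty acid synthesis and desaturation and 0 of cholesterol synthesis and uptake were lower. Of 34 genes of fatty acid oxidation 7 were higher and 4 lower (32.4% called, against 20.1% of all genes). Without knockout-labelled 2 there were 4 higher, and with all 13 libraries 4 higher and 2 lower. Of 30 genes of sphingolipid metabolism 4 were higher and 6 lower (33.3%), and 2 were higher without knockout-labelled 2. Of 18 genes of lipid droplets and cholesterol efflux 6 were higher and 1 lower (38.9%). Here 3 were higher without knockout-labelled 1, and 0 lower with all 13 libraries. Crot, a peroxisomal carnitine transferase, fell from 62.9 to 41.1 CPM, and Smpd3, neutral sphingomyelinase, from 27.7 to 14.3 CPM.

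Of 37 genes of purine and pyrimidine metabolism, 9 were higher and 5 lower, and the first enzymes of both synthesis routes were among the fallers. Ppat, which starts purine synthesis, stood at 70.5, 73.6, 69.3 and 64.4 CPM against 33.0, 35.6 and 40.3 CPM (log2 fold change -0.93, standard error 0.09, adjusted p = 6.52e-05). Cad, which starts pyrimidine synthesis, stood at 106, 104, 100 and 103 CPM against 54.0, 66.4 and 64.7 CPM. Upp1, which breaks down uridine, fell from 87.6, 88.3, 97.7 and 69.8 CPM to 37.6, 41.2 and 31.3 CPM. The higher members were smaller steps, such as the salvage kinase Uck1 from 56 ± 0.498 to 71.5 ± 5.77 CPM. The higher count of purine and pyrimidine metabolism was 5, 4 and 2 without control 2, knockout-labelled 1 and knockout-labelled 2. With all 13 libraries 2 were lower, and Cad was not called (adjusted p 0.1).

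Some beta-cell transcription factors and granule genes were called lower, while 13 and 10 members of the respective lists were not called. Of 23 beta-cell transcription factors, 10 were called lower and 0 higher (median -0.29), and the median deviation was alike in the 3 knockout-labelled replicates at -0.34, -0.28 and -0.29. Mafa, an activator of the insulin genes, stood at 324, 381, 325 and 368 CPM against 94.6, 137 and 79.1 CPM (log2 fold change -1.75, standard error 0.16). The beta-cell transcription factors called lower numbered 5, 6 and 5 without control 2, control 3 and knockout-labelled 1. Of 21 genes for insulin granule cargo and processing, 10 were lower and 1 higher (median -0.34), with 8 to 11 lower when any 1 library was left out and 2 higher without control 2. Pcsk1, a proinsulin-cutting protease, stood at 380, 394, 376 and 477 CPM against 202, 217 and 228 CPM (log2 fold change -0.91, standard error 0.09, adjusted p = 0.000123). Ddc, which makes dopamine and serotonin, fell from 424, 399, 357 and 315 CPM to 179, 205 and 197 CPM. The exception was Vgf, a granule protein cut into secreted peptides, at 29.2, 32.9, 36.4 and 54.7 CPM against 138, 103 and 94.9 CPM (log2 fold change 1.54, standard error 0.19). In the fit of all 13 libraries, 4 beta-cell transcription factors and 4 granule genes were lower and 0 granule genes higher, and neither Pcsk1 (adjusted p 0.078) nor Vgf (adjusted p 0.0512) was called.

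Receptor genes of islets leaned lower, and single ion transport genes fell. Of 29 G protein-coupled receptors of islets, 10 were lower and 3 higher (median -0.25), with 8 to 10 lower when any 1 library was left out. Galr1, a receptor of the inhibitory peptide galanin, stood at 39.1, 37.2, 32.3 and 43.2 CPM against 11.3, 13.5 and 16.2 CPM (log2 fold change -1.47, standard error 0.13, adjusted p = 6e-05). Gpr119, a receptor of lipid amides, fell from 11.2, 13.5, 10.2 and 9.38 CPM to 2.67, 2.97 and 3.76 CPM. F2r, the thrombin receptor, rose from 0.318, 0.347, 0.210 and 0.604 CPM to 3.03, 2.68 and 3.60 CPM (log2 fold change 3.03, standard error 0.30). Among 50 genes of calcium channels and calcium handling, 2 were higher and 6 lower. Atp2a3, a pump that fills the endoplasmic reticulum with calcium, stood at 841, 968, 852 and 973 CPM against 462, 614 and 568 CPM. Among 40 sodium, chloride and cation channels, 1 was higher and 6 lower, with Scnn1b, a subunit of the epithelial sodium channel, at 356, 346, 398 and 389 CPM against 246, 242 and 222 CPM. Calls in either direction took 16% of the calcium list and 17.5% of the sodium, chloride and cation list, against 20.1% of all genes. The lower count of the sodium, chloride and cation channels and the sodium pump was 3 without knockout-labelled 1. The higher count of calcium channels and calcium handling was 6 without knockout-labelled 3. When all 13 libraries were fitted together, 6 receptors and 3 members of each of these channel lists were lower, and 2 receptors were higher.

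Exocytosis and trafficking genes were split. Of 97 genes of SNARE and exocytosis machinery, 10 were higher and 16 lower (median -0.04), and of 108 Rab GTPases and their regulators 9 were higher and 16 lower. Sytl4, the granule protein granuphilin that docks insulin granules, stood at 360, 411, 340 and 442 CPM against 217, 224 and 193 CPM (log2 fold change -0.88, standard error 0.10, adjusted p = 0.000231). Tbc1d1, a Rab inhibitor, fell from 120, 135, 125 and 139 CPM to 64.6, 76.0 and 84.8 CPM. Rab15 rose from a low level of 0.801 to 4.07 CPM. The SNARE and exocytosis machinery counts were 5 higher without control 1, 2 or 3 or knockout-labelled 1, and 10, 9 and 9 lower without control 2, knockout-labelled 1 and knockout-labelled 2. The Rab GTPases and their regulators called higher were 5, 4, 5 and 4 without control 1, control 3, knockout-labelled 1 and knockout-labelled 2, and those called lower 10 without knockout-labelled 1. Over all 13 libraries in 1 fit, 3 were higher and 5 lower among SNARE and exocytosis machinery and 3 higher and 7 lower among Rab GTPases and their regulators, and Sytl4 was not called (adjusted p 0.437).

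Some epithelial keratins and actins rose, and some collagens and junction genes fell. Of 20 keratins and desmosome proteins, 5 were higher and 1 lower. The keratin partners Krt8 and Krt18 rose together with Krt7: Krt8 stood at 243, 215, 246 and 305 CPM against 469, 401 and 400 CPM, and Krt18 at 412, 391, 376 and 409 CPM against 748, 618 and 534 CPM. The keratins and desmosome proteins called higher were 3 without knockout-labelled 2. Of 47 genes of the actin cytoskeleton, 9 were higher and 2 lower. Actg1 and Actb, the actins of non-muscle cells, rose from 446 ± 38.1 to 723 ± 29.9 CPM and from 470 ± 39.4 to 684 ± 86.1 CPM, and Tmsb4x, which binds actin monomers, fell from 144, 135, 115 and 95.4 CPM to 83.5, 77.0 and 59.0 CPM. The actin cytoskeleton count was 5, 5 and 4 without controls 1, 2 and 3, and 3 without knockout-labelled 1 or 2. It was 2 with all 13 libraries.

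Of 19 collagens, 5 were lower and 0 higher (median -0.54, from -0.91 to -0.20 with any 1 library left out), and 1 was higher without control 3, control 4 or knockout-labelled 3. Col6a6 stood at 35.9, 44.2, 32.7 and 35.1 CPM against 11.6, 16.1 and 14 CPM (log2 fold change -1.41, standard error 0.13), and Col4a1, a basement membrane chain, fell from 35.8 to 20.5 CPM. Under the fit of all 13 libraries, 2 collagens were lower, and Col4a1 was not called (adjusted p 0.233). Summed stellate markers were 0.225 to 1.01 CPM in controls and 0.366 to 6.32 CPM in knockout-labelled libraries, and their part in the collagen result was not tested. Mmp11, a matrix metalloprotease, rose from 93.8, 67.6, 91.9 and 58.8 CPM to 225, 217 and 201 CPM (log2 fold change 1.46, standard error 0.15). Of 42 genes of tight, adherens and gap junctions, 3 were higher and 10 lower. Cldn4, a claudin of tight junctions, rose from 188, 200, 185 and 240 CPM to 402, 415 and 341 CPM. Cdh7 and Cdh8, cadherins of neurons, fell from 12.4 to 3.87 CPM and from 38.4 to 16.8 CPM. Among tight, adherens and gap junctions 6 were lower without knockout-labelled 2. With all 13 libraries 4 junction genes were lower.

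Genes of several signalling pathways changed in both directions. Areg, the EGF receptor ligand amphiregulin, stood at 1.81, 1.54, 2.17 and 1.70 CPM in controls and 17.1, 7.28 and 15.4 CPM in knockout-labelled cells (log2 fold change 2.87, standard error 0.27, adjusted p = 6.57e-05). Ntrk2, the receptor of the neurotrophin BDNF, fell from 251, 228, 220 and 215 CPM to 125, 118 and 115 CPM (log2 fold change -0.94, standard error 0.07, adjusted p = 2.39e-05). Eif4ebp1, a translation repressor controlled by mTOR, stood at 84.8, 73.2, 80.7 and 75.1 CPM against 191, 141 and 121 CPM. Of 35 genes of insulin, IGF and mTOR signalling, 6 were higher and 6 lower, and of 79 genes of MAP kinase cascades 10 were higher and 9 lower. These calls took 34.3% and 24.1% of the lists, against 20.1% of all genes. Dusp4, a MAP kinase phosphatase, rose from 3.12, 5.80, 5.70 and 9.47 CPM to 17.1, 18.8 and 20.9 CPM. The lower count of insulin, IGF and mTOR signalling was 3 without knockout-labelled 1 and 10 without knockout-labelled 3. The lower count of MAP kinase cascades and their inhibitors was 5 without control 2 or knockout-labelled 1. In the fit of all 13 libraries, it was 4, and 2 genes of insulin, IGF and mTOR signalling were higher.

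Among transcription regulators outside the beta-cell list, Pparg, a nuclear receptor of lipid storage, stood at 38.9, 34.9, 40.6 and 39.4 CPM against 82.5, 78.9 and 72.0 CPM (log2 fold change 1.02, standard error 0.08, adjusted p = 2.22e-05). Its coactivator Ppargc1a rose from a low 1.30 to 3.85 CPM. Ciart, a repressor of the circadian clock, stood at 17.9, 17.5, 18.6 and 17.3 CPM against 34.9, 32.1 and 32.8 CPM, a gap many times the spread of either group. Cebpb, a stress-responsive factor, rose from 135 ± 15.5 to 247 ± 40.7 CPM. Myc, a growth-promoting factor, rose from 16.7, 20.3, 18.7 and 16.8 CPM to 34.2, 37.7 and 25.7 CPM. It was 1 of 2 genes called higher among 23 immediate early genes, the other being Klf4 (adjusted p = 0.0429), with 0 lower. The Klf4 call was lost without control 2, 3 or 4 or knockout-labelled 1 or 3 (adjusted p 0.068 to 0.142). Immediate early genes answer cell handling within minutes, and their median deviation differed within the knockout-labelled group at 0.29, -0.32 and 0.51. Their higher count was 1 without control 2, control 3, knockout-labelled 1 or knockout-labelled 3 and 6 without knockout-labelled 2, and 3 immediate early genes were called lower without knockout-labelled 3. When all 13 libraries were fitted together, 1 immediate early gene was higher, and neither Klf4 (adjusted p 0.11) nor Pparg (adjusted p 0.0581) was called.

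Genes of antigen presentation and inflammation leaned lower. Of 24 genes of MHC class I and antigen processing, which show peptides of the cell to T cells, 14 were called lower and 0 higher (median -0.47), with 12 to 14 when any 1 library was left out. H2-K1, a class I heavy chain, stood at 1342, 1105, 1385 and 1234 CPM in controls and 774, 804 and 747 CPM in knockout-labelled cells (log2 fold change -0.71, standard error 0.09, adjusted p = 0.000334). H2-D1 went from 1806 ± 192 to 1188 ± 12.9 CPM. H2-Q6 had a larger fold, from 33.5, 19, 38.0 and 32.6 CPM to 5.10, 3.08 and 6.19 CPM, and is uncertain as a single gene because class I genes of this region are near copies.

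Of 68 interferon-inducible genes, 17 were lower and 0 higher (median -0.43). Irf7, the factor that amplifies the interferon response, stood at 177, 146, 176 and 228 CPM against 74.4, 84.8 and 61.3 CPM (log2 fold change -1.31, standard error 0.15, adjusted p = 0.000235). Gbp2, an interferon-induced GTPase, fell from 10.8, 13.7, 17.9 and 20.0 CPM to 3.27, 5.25 and 2.56 CPM. The controls were not level on this list, with median deviations of -0.23, -0.14, -0.11 and 0.50 in replicates 1 to 4 against -0.30, -0.21 and -0.66 in the knockout-labelled replicates. The interferon-inducible genes called lower were 11 without knockout-labelled 1, and without control 4 1 gene was called higher. Over all 13 libraries in 1 fit, 8 were lower.

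Of 28 genes of the NF-kappaB pathway, which drives inflammatory genes, 8 were lower and 1 higher (median -0.26). Icam1, an adhesion molecule for leukocytes, stood at 18.9, 14.9, 29.0 and 16.4 CPM against 2.47, 3.37 and 3.68 CPM (log2 fold change -2.63, standard error 0.24, adjusted p = 6.29e-05), and Nos2, inducible nitric oxide synthase, fell from 4.52 to 0.876 CPM. The NF-kappaB pathway count was 4 without control 3 and 5 without knockout-labelled 1. The 1 higher call, Bcl3, was lost without control 1, control 2 or knockout-labelled 1, while 2 were called higher without control 4 or knockout-labelled 2. Of 23 genes of complement and coagulation, 7 were lower and 1 higher (median -0.48). Cfb, complement factor B, stood at 92.7, 54.3, 162 and 82.7 CPM against 12.6, 15.6 and 18.6 CPM (log2 fold change -2.65, standard error 0.32). It shares 79.5% of its exon bases with the read-through gene Gm20547. The complement and coagulation count was 4 without control 3 and 2 without knockout-labelled 1, and none was higher without control 1, control 2, knockout-labelled 1 or knockout-labelled 3. Under the fit of all 13 libraries, 3 genes of the NF-kappaB pathway and 3 of complement and coagulation were lower and 0 of either higher, Bcl3 having an adjusted p of 0.073.

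Among cytokines, chemokines and their receptors, 1 of 61 was higher and 11 lower. None was higher without control 2, control 3, knockout-labelled 1 or knockout-labelled 2, and 3 were without knockout-labelled 3. With all 13 libraries 0 were higher. Il18bp, a secreted decoy for interleukin 18, fell from 78.6, 65.6, 83.9 and 77.6 CPM to 33.8, 38.2 and 34.4 CPM (log2 fold change -1.11, standard error 0.09, adjusted p = 3.57e-05). Csf1, the growth factor of macrophages, fell from 35.9, 40.6, 51.4 and 43.5 CPM to 16.0, 23.2 and 17.6 CPM. Summed macrophage and dendritic markers were also lower in knockout-labelled libraries (102 to 105 against 126 to 148 CPM), with the pan-leukocyte gene Ptprc at 0 to 0.251 CPM in all 7 libraries. Cd74, a marker of antigen-presenting cells, stood at 1.13, 2.58 and 13 CPM in the knockout-labelled libraries and 7.08 to 12.8 CPM in controls. The part of such cells in the falls of Irf7, Icam1 and the class I genes was not tested. Gsdma, a pore-forming gasdermin, went against the trend with 155, 134, 174 and 162 CPM against 364, 320 and 270 CPM (log2 fold change 1.02, standard error 0.11).

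Histone genes had the lowest list median. Of 46 histone genes tested, 24 were called lower and 1 higher (median -0.74), and 21 to 24 were lower when any 1 library was left out. The falls sat in the clustered Hist genes, whose transcripts mostly end in a stem-loop without a poly(A) tail: 21 of 36 were lower and 1 higher (median -1.05), against 3 of 10 lower and 0 higher among histone genes outside the clusters (median -0.07). Most clustered genes were low, with a median control level of 2.38 CPM. Hist1h1c, a linker histone, was the most abundant of them at 194, 219, 201 and 167 CPM in controls and 121, 113 and 128 CPM in knockout-labelled cells (log2 fold change -0.70, standard error 0.09, adjusted p = 0.000707). Hist2h4 stood at 6.56, 10.4, 11 and 6.71 CPM against 2.17, 2.78 and 2.18 CPM (log2 fold change -1.86, standard error 0.22). The median deviation of the clustered genes was -0.76, -0.78 and -1.11 in the 3 knockout-labelled replicates. Histone paralogs are close copies, so the split of reads among them is uncertain. The 1 rise was that of Hist1h2bb, from 0.690 to 1.82 CPM, and 3 histones were called higher without knockout-labelled 3.

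Cell cycle and DNA repair genes had few calls in either direction. Of 46 genes of cell cycle and DNA replication, 4 were higher and 3 lower (median 0.00), and of 82 DNA repair genes 9 were higher and 3 lower. Cdkn1a, the cycle inhibitor p21, stood at 52.7, 51.3, 53.4 and 75.9 CPM against 123, 83.0 and 102 CPM (log2 fold change 0.81, standard error 0.15, adjusted p = 0.00475). Xrcc3, which acts in homologous recombination, fell from 48.6, 49.7, 44.9 and 60.4 CPM to 25.4, 27.4 and 31.0 CPM. Among the cell cycle and DNA replication genes 2 were higher without control 2 or knockout-labelled 1 and 1 was lower without knockout-labelled 1, and the higher DNA repair count was 5, 2 and 3 without control 3, knockout-labelled 1 and knockout-labelled 2. In the fit of all 13 libraries, 2 cell cycle genes were higher and 1 lower, and 4 DNA repair genes were higher.

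Most lists of the nucleus lay near or under the shares of all genes, with a few strong single genes. Of 119 chromatin modifiers and remodellers, 6 were higher and 10 lower. Kdm2b, a histone demethylase bound to CpG islands, stood at 109, 108, 101 and 102 CPM against 52.5, 60.4 and 53.8 CPM (log2 fold change -0.92, standard error 0.08, adjusted p = 2.85e-05). Tet1, which oxidises methylcytosine, fell from 4.33 to 1.92 CPM. Of 134 splicing factors and RNA-binding proteins, 11 were higher and 12 lower, with Rbm20, a splicing regulator best known for titin, at 15.3, 22.4, 20.8 and 19.4 CPM against 7.13, 7.04 and 8 CPM. The splicing factors and RNA-binding proteins called higher ranged from 1 without knockout-labelled 1 to 23 without knockout-labelled 3, with 6, 4, 4, 5 and 2 without control 1, 2, 3, 4 and knockout-labelled 2, and 7 were lower without knockout-labelled 1. Chromatin modifiers and remodellers were 2, 3 and 2 higher without control 2, control 3 and knockout-labelled 2 and 4, 4 and 5 lower without control 2, knockout-labelled 1 and knockout-labelled 2. Of 349 Zfp zinc finger proteins, the largest family of repressors, 11 were higher and 33 lower (median -0.09), both under the shares of all genes. Zfp zinc finger proteins called lower were 21, 13, 20, 15 and 21 and called higher 5, 5, 5, 6 and 4 without control 1, control 2, control 3, knockout-labelled 1 and knockout-labelled 2. When all 13 libraries were fitted together, 2 chromatin genes were higher and 4 lower, 4 splicing factors and RNA-binding proteins were higher and 6 lower, and 2 Zfp zinc finger proteins were higher and 10 lower.

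By class of transcript, 22.8% of 13231 protein-coding genes and 13.7% of 2190 long noncoding RNAs were called. Long noncoding RNAs leaned lower, with 110 higher and 191 lower (median -0.09). Processed pseudogenes, which are intronless copies of mRNAs, leaned higher, with 96 higher and 17 lower of 991 (median 0.27), and reads of a parent gene can be counted in such copies. Gm50353, a long noncoding RNA, stood at 8.15, 8.13, 7.86 and 8.66 CPM against 1.93, 2.25 and 1.5 CPM (log2 fold change -2.12, standard error 0.16, adjusted p = 1.97e-05). Calls were spread over the chromosomes, from 17.2% of genes on chromosome 18 to 23.8% on chromosome 15 among the autosomes and 21.6% on the X chromosome. Exon bases shared with another gene were found for 38.3% of genes called higher, 39.4% of genes called lower and 43.8% of genes not called.

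In the authors' deposited table of this comparison, 3051 of 11810 genes had a false discovery rate below 0.05, 1578 higher and 1473 lower. Of the genes so listed in the authors' deposited table, 2695 were also called here, and all 2695 had the same direction. The table tests fewer genes, and 2804 of the 3525 calls made here are of genes it holds.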

How the data were processed

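Gene-level read counts were taken from the authors' deposited count table, which holds raw counts of all 13 libraries per the file headers, and no column without a sample was used. The submitters' processing notes name FastQC, the aligner STAR, the build GRCm38.p6 and edgeR, with no version. The counting program, strand setting and annotation release are not given in the sources used here. The authors' deposited comparison table gives log2 fold changes, p-values and false discovery rates, per the file headers, and served only for the last paragraph of the results.

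Counts of the 7 libraries went through edgeR 4.0.16 (filterByExpr, TMM factors and the quasi-likelihood F test, in R 4.3.3 with limma 3.58.1), with Benjamini-Hochberg adjustment over all genes tested and a threshold of 0.05. CPM use the TMM sizes, computed before the filter for marker sums. A list median is of log2 fold changes, and a deviation is log2 CPM (prior count 2) minus the control mean. Standard errors were derived from the F statistic. DESeq2 1.42.0 was an alternative. Where a symbol had several IDs, a list used the ID with most counts. Library totals of 28.7 to 36.8 M counted reads limit the precision of low genes. The pipeline was tested on simulated data. The deviations of same-numbered control and knockout-labelled samples correlated at 0.13, 0.097 and 0.183, and those of different-numbered samples at -0.236 to 0.138. The labels name no shared litter or day, so the numbers were not taken as pairs.

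The comparison, the gene lists and the tests were chosen with earlier results of these data known. Named genes are Txnrd1, the 12 higher and 12 lower with the smallest adjusted p, the 12 and 12 with the largest CPM difference among called genes, the 10 and 10 with the largest fold (at least 5 CPM in a group, no overlap), up to 3 per direction and list, and any cell type marker. Ddit3 and Hist1h1c were named after their values were seen. Positions and exon sharing are from the GENCODE annotation of GRCm38, and promoters from RefSeq (GRCm38.p6). The text names only part of the genes this rule picks.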

Additional observations from a re-analysis of the deposited data

Results flagged for a closer look

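Of 68 control groups screened, 5 had 1 library far from the other 3, and chance flags about 1 in 20 such groups. Hmox1, heme oxygenase 1, stood at 67.2 CPM in control replicate 4 and at 31.97 to 36.4 CPM in the other controls, still far below the knockout-labelled mean of 369.8 CPM. The mitochondrially encoded share of reads was 0.23% in control replicate 4 and 0.28 to 0.29% in the other controls. Gm22133 stood at 2349 CPM in control replicate 1 and at 1984 to 2015 CPM in the others, and Gm10252 at 2132 CPM in control replicate 1 and at 1779 to 1787 CPM in the others. Both of these share exon bases with Ftl1. Gm9855, a processed pseudogene, stood at 3.497 CPM in control replicate 2 and at 0.3494 to 0.518 CPM in the others.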

How the results depend on the processing

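No named gene changed direction under any alternative, and no gene called in the full fit was called in the other direction. The counts of called genes stayed within 1.5 times under RLE scaling (3537), sizes without hormone and mitochondrial genes (3523), no filter (3766), a stricter filter (3515) and DESeq2 (4049). With all 13 libraries in 1 fit the counts were 1673 in all, 899 higher and 774 lower, with 534 at least 2-fold, and 137 of 478 named genes were no longer called. The cause was not tested. Leaving out 1 library at a time gave 1991 to 4117 genes called, 983 to 2122 higher, 1008 to 1995 lower and 465 to 706 at least 2-fold. The lowest counts came without knockout-labelled replicate 1 and the highest, for called genes, without knockout-labelled replicate 3. Under these fits 23 to 71 named genes lost their call. Of the 174 list counts, 0 moved by over 1.5 times under RLE scaling, 2 under sizes without hormone and mitochondrial genes, 4 under a stricter filter, 19 under DESeq2, 29 with no filter, 33 with the replicate block, 26 to 79 with 1 library left out and 110 with all 13 libraries.

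With the replicate number as a block 3544 genes were called, 1785 higher, 1759 lower and 727 at least 2-fold, of which 2984 genes were shared with the fit without a block. The numbers share no stated source, so this is no paired analysis.

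The share of genes called was lowest among low genes: of those under 1 CPM 6.35% were called, against 37% at 100 CPM and over. The part of depth in this was not tested.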

Other observations

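Around Txnrd1 on chromosome 10, 85 genes within 2 Mb on either side were tested, of which 7 were higher and 12 lower (22.4%, against 20.1% of all genes). Tdg, a DNA glycosylase that removes thymine and oxidised methylcytosine, lies 183 kb before Txnrd1. It stood at 18.8, 16.0, 21.4 and 22.6 CPM in control beta cells and at 5.80, 6.96 and 6.17 CPM in knockout-labelled beta cells (log2 fold change of -1.64 with a standard error of 0.14; adjusted p = 3.12e-05 in edgeR). In the Tomato-positive non-beta cells of the same study Tdg stood at 22.9, 29.1 and 27.3 CPM in controls and at 9.77, 6.88 and 8.11 CPM in knockout-labelled libraries. The lower Tdg level was thus seen in both sorted fractions. Chst11, a chondroitin sulfotransferase 87.8 kb after Txnrd1, was lower in beta cells, with 25.6, 20.8, 27.4 and 19.3 CPM in controls against 14.9, 15.2 and 12.3 CPM. In non-beta cells it stood at 4.17, 5.63 and 4.84 CPM in controls and at 5.42, 4.81 and 6.02 CPM in knockout-labelled libraries.

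Every beta-cell library held both Xist, which is transcribed from the inactive X of females, at 19.1 to 31.8 CPM, and Y-linked Ddx3y and Eif2s3y, at 10.1 to 19.8 and 14.7 to 29.6 CPM. None of the 5 sex-linked genes tested was called.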
